A study of Homo sapiens with 6 samples.

Results

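The 10 genes described here encode proteins that build, bind or organise microtubules in neurons, or act in their growth cones. The genes are MAP1A, MAP1B, MAP2, MAP4, MAPT, DCX, DCLK1, DPYSL3, GAP43 and TUBB3. They were taken by symbol from a table of 26372 genes, and all 10 were found, were above 0 in every library and passed the filter of a mean of at least 1 FPKM (fragments per kilobase of transcript, scaled to sequencing depth) that left 13263 genes to test. The genes were chosen by their roles and by the FPKM differences of this comparison, with DCX known to be higher and GAP43 lower, so their differences between the groups are given as a description and without p-values.

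SH-SY5Y, a line derived from a human neuroblastoma, resembles immature noradrenergic neurons. All cells had been infected with a lentivirus whose U6 promoter drives a short hairpin RNA, either the control hairpin shNC or shTDP43, which targets TDP-43, the RNA-binding protein encoded by TARDBP. The labels describe puromycin selection of the knockdown cells, 2 weeks at 2 µg/mL and then upkeep in 1 µg/mL, and do not describe that of shNC cells separately or say that clones were picked. Each group had 3 poly(A)-selected libraries. The samples hold 1 hairpin against TDP-43 and no rescue, so effects of TDP-43 loss, other effects of the hairpin and differences between infected populations cannot be told apart. The labels do not say whether libraries of a group came from separate cultures, so p-values measure the spread between these libraries, which may be technical.

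Microtubules are polymers of alpha- and beta-tubulin, and structural microtubule-associated proteins (MAPs) stabilise, bundle or space them. In a growing neurite, dynamic microtubules enter the growth cone, the motile tip of the axon, where collapsin response mediator proteins (CRMPs) and the membrane protein GAP-43 link signals to the cytoskeleton. TDP-43 binds RNA at UG-rich sequences, and its fly counterpart controls translation of the MAP1B homologue futsch.

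TARDBP had 56.1, 56.2 and 56.6 FPKM in the shNC libraries and 36.0, 33.1 and 34.8 FPKM in the shTDP43 libraries, or 61.5% of control (limma adjusted p = 2.84e-06). By exact permutation of the libraries (two-sided) p was 0.1, which is the lowest possible with 3 against 3. Across genes, Pearson's r was 0.993 to 0.995 within a group and 0.980 to 0.982 between groups. The table holds no read counts. Steps among the lowest values gave rough depths relative to shTDP43 replicate 1, which was set to 1. They were 1.15 to 1.28 in shNC and 1.09 to 1.11 in the other shTDP43 libraries. The most common ratio behind each estimate was shared by only 5.92% to 9.97% of 1655 low genes. shNC replicate 1 and shTDP43 replicate 3 stood apart in the small nucleolar RNA SNORD3A, at 11541 and 8551 FPKM against 137209 to 552747 FPKM in the others. The noradrenergic markers of neuroblastoma were abundant, with summed levels of 1438 to 1442 FPKM in shNC and 1428 to 1475 FPKM in shTDP43. By limma, 5 of 9 tested were higher and 3 lower, beside 18.5% and 19.6% of all tested genes. Of these markers TH was at 0 to 0.207 FPKM.

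Because TDP-43 binds UG-rich RNA, the longest uninterrupted TG run was located in the coding transcripts of each gene (GENCODE release 29, GRCh38, sense strand only). Introns were not searched. DCX had the longest, 9 TG units in its 3′ UTR (chrX:111299984-111300013, minus strand). GAP43 had 4 units in its 5′ UTR (chr3:115623522-115623551, plus strand), and the other 8 genes had 3 units. By density the order differed. TGTGTG began 2.63 times per kb in the longest coding transcript of GAP43 (5 starts) and 1.91 times in that of DCX (18 starts). The other 8 genes had 0.112 (MAP4) to 0.734 (MAPT) per kb. Windows of 30 bases are shown for DCX, GAP43, MAP1B (coding sequence, chr5:72194762-72194791, plus strand) and MAP4 (3′ UTR, chr3:47851985-47852014, minus strand), with the longest run in capitals and T written for U:
DCX: ggtgcaTGTGTGTGTGTGTGTGTGcatctg
GAP43: aactgccctggTGTGTGTGagggagagaga
MAP1B: ctcatctttgatTGTGTGgcatccagcaaa
MAP4: ttgccattttgtTGTGTGtatgctgctttt
A run of at least 6 TG units was present in 973 of 19669 protein-coding genes (4.95%), and in 235 of 1392 (16.9%) of those whose longest coding transcript has at least 8000 bases, as that of DCX does with 9405. Of the 671 tested genes with such a run, 25.3% were higher and 23.2% lower in shTDP43 by limma, beside 18.5% and 19.6% of all tested genes. Their median log2 difference was -0.0040. The 2 sets were not matched for transcript length or expression level, so these shares cannot be tied to the runs. These runs describe the reference sequence, and binding was not measured here.

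The largest differences among the 10 genes were in DCX and DPYSL3, in opposite directions. The 250 bases before the first annotated start of each (RefSeq, GRCh38.p14) are shown as examples that differ in composition, with each CG dinucleotide and each TATAAA in capitals. DCX has 42.8% G or C and 2 CG dinucleotides (chrX:111412193-111412442, minus strand), and DPYSL3 has 62.8% and 25 (chr5:147510069-147510318, minus strand):
DCX: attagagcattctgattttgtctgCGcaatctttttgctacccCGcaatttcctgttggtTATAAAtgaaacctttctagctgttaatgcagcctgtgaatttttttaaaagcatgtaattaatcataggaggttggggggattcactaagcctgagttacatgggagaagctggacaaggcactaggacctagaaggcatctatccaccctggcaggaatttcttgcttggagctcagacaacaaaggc
DPYSL3: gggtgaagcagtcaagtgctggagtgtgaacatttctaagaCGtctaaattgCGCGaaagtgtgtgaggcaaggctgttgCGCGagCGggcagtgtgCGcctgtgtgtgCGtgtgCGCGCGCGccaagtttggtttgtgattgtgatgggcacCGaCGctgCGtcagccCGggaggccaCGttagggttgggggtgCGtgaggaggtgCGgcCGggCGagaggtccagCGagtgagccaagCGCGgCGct
Over 35116 windows of this length before all annotated starts of 27305 genes, not only the first, the median was 11 CG dinucleotides. TATAAA, searched on both strands, was in 10.7% of them. Promoter entries were matched for 9 of the 10 genes, all but MAPT. Before their first annotated start, MAP4 had 33 CG dinucleotides, MAP1B 25, GAP43 7 and DCLK1 2, and these genes were lower in shTDP43. TUBB3, which was higher, had 9 there and 39 before another start. Counts before other starts also differed within a gene: MAP4 had 1, MAP1B 11, and DCLK1 22 and 5. A link between composition and direction was not tested. Several genes have more than 1 annotated start, and the gene-level values do not show which was used.

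**Figure D1:**
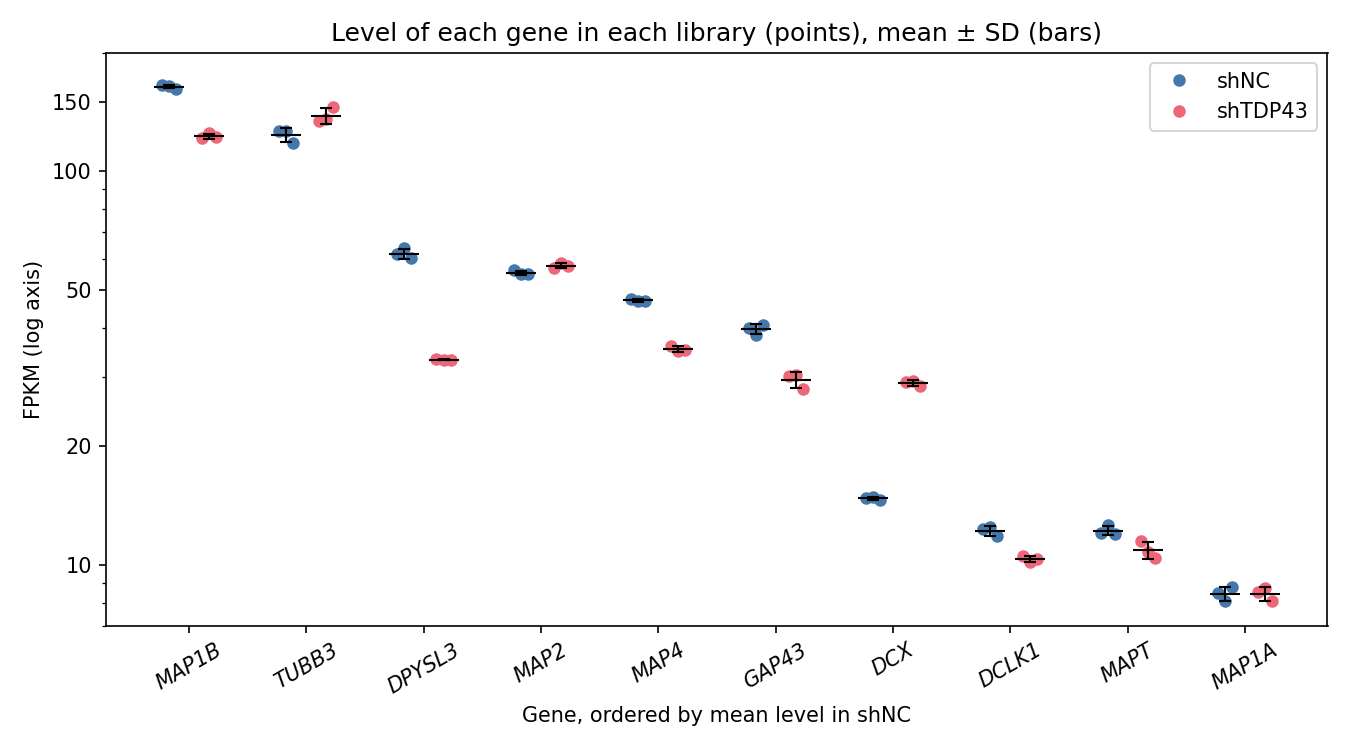
FPKM of the 10 genes in each of the 6 libraries (points, log axis) with the mean and SD of 3 libraries (bars), ordered by the mean level in shNC. The groups overlap in MAP1A and are farthest apart in DCX, higher in shTDP43, and DPYSL3, lower in shTDP43.

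In shNC, MAP1B was the most abundant of the 10 per unit of length and TUBB3 the next, followed by DPYSL3, MAP2, MAP4, GAP43, DCX, DCLK1, MAPT and MAP1A. Neighbours in this order did not overlap between libraries except DCLK1 and MAPT, both at a mean of 12.2 FPKM. In shTDP43 the order began with TUBB3 and MAP1B, then ran MAP2, MAP4, DPYSL3, GAP43, DCX, MAPT, DCLK1 and MAP1A. There GAP43 overlapped with DCX (29.5 ± 1.37 and 28.95 ± 0.443 FPKM; SD, n = 3), and MAPT overlapped with DCLK1. DPYSL3 thus stood above MAP2 and MAP4 in control cells and below both in cells with the TDP-43 hairpin.

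By the limma fit across all genes, 2 of the 10 genes were past the threshold (adjusted p under 0.05) as higher in shTDP43 and 6 as lower. Of all tested genes 38.1% were past it, 18.5% as higher and 19.6% as lower. The libraries of the 2 groups did not overlap in 9 of the 10 genes, against 50.7% of all tested genes. The median log2 difference of the 10 genes was -0.19, beside 0.0012 for all tested genes, and their median size was 0.31 beside 0.12. Since the choice of genes drew on this comparison, these counts are a description only. Without the pair of libraries low in SNORD3A, 1 gene was past the threshold as higher and 5 as lower.

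**Figure D2:**
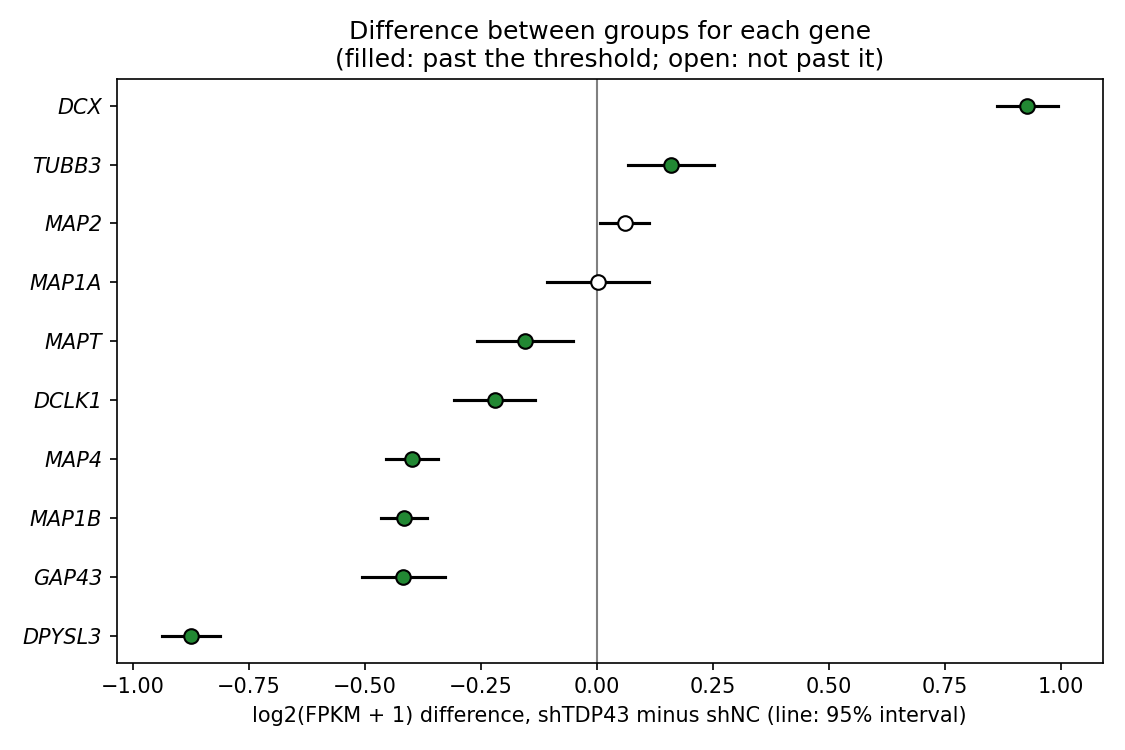
Difference between shTDP43 and shNC on the log2(FPKM + 1) scale for the 10 genes, with the 95% interval of the limma fit over 6 libraries. DCX lies near 0.93 and DPYSL3 near -0.88, while MAP1B, MAP4 and GAP43 lie together near -0.4.

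Among the structural MAPs, MAP1B and MAP4 were lower without overlap, MAPT was slightly lower, and MAP1A and MAP2 were close to control. MAP1B (chr5:72107475-72209565 in GRCh38), a large MAP of growing axons that is cleaved into a heavy and a light chain, had 166, 165 and 162 FPKM in shNC and 122, 125 and 122 FPKM in shTDP43. Every shTDP43 library lay below every shNC library. Its level was 74.8% of control, a log2 difference of -0.42 (SE 0.02). MAP1A (chr15:43510954-43531611), the related MAP of mature dendrites and axons, had 8.45, 8.08 and 8.77 FPKM in shNC and 8.53, 8.73 and 8.07 FPKM in shTDP43. The groups overlapped fully, and the log2 difference of 0.0016 had a 95% interval from -0.11 to 0.11. MAP1B therefore made up 91.5% ± 0.360 of the summed FPKM of MAP1A, MAP1B and MAP1S in shNC and 88.9% ± 0.0229 in shTDP43 (SD, n = 3), and the sum stood at 76.9% of control.

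MAP2, MAP4 and tau, the product of MAPT, share related microtubule-binding repeats. MAP2 (chr2:209424047-209734112), which marks dendrites, had 56.0, 54.8 and 54.9 FPKM in shNC and 56.9, 58.4 and 57.6 FPKM in shTDP43. The shTDP43 libraries were all above the shNC libraries, but the log2 difference was only 0.06 (95% interval 0.01 to 0.11) and was not past the threshold. With quantile normalization it was 0.08 and past it. MAP4 (chr3:47850695-48088848), a MAP found in most cell types, had 47.3, 46.7 and 46.9 FPKM in shNC and 36.0, 34.9 and 35.1 FPKM in shTDP43. That is 75.3% of control with no overlap, a log2 difference of -0.40 (SE 0.02).

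MAPT (chr17:45894554-46028334), the gene of the axonal MAP that aggregates in tauopathies, had 12.0, 12.6 and 12.0 FPKM in shNC and 11.5, 10.7 and 10.4 FPKM in shTDP43. The groups did not overlap, yet the difference was small, 89.1% of control and -0.15 on the log2 scale (95% interval -0.26 to -0.05). It was no longer past the threshold when any 1 library other than shTDP43 replicate 1 was left out. The differences were -0.16, -0.13 and -0.17 without shNC replicates 1, 2 and 3, and -0.15 and -0.13 without shTDP43 replicates 2 and 3. Leaving out the pair of libraries low in SNORD3A gave -0.13, also not past the threshold. MAPT-AS1, an antisense RNA that shares 75 exonic bases with MAPT, was at 0.166 to 0.864 FPKM. Of the summed FPKM of the 3 genes, MAP2 made up 48.3% ± 0.266 in shNC and 55.5% ± 0.857 in shTDP43, MAP4 41.0% ± 0.152 and 34.0% ± 0.459, and MAPT 10.7% ± 0.321 and 10.5% ± 0.473 (SD, n = 3). The balance between MAP2 and MAP4 thus differed in every library, from 1.17 to 1.18 parts MAP2 for each part MAP4 in shNC to 1.58 to 1.67 in shTDP43. Splice forms, such as tau with or without its alternative repeat, were not analysed here, because values are sums per gene.

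The doublecortin genes went in opposite directions. DCX (chrX:111293779-111412192), a microtubule-binding protein of migrating neurons, had 14.8, 14.8 and 14.6 FPKM in shNC and 29.1, 29.3 and 28.4 FPKM in shTDP43. The groups were far apart compared with the SD within them, 0.118 and 0.443 FPKM, and the shTDP43 mean was 196% of control (log2 difference 0.93, 95% interval 0.86 to 0.99). DCLK1 (chr13:35768652-36131939), which joins doublecortin domains to a kinase domain, had 12.3, 12.5 and 11.8 FPKM in shNC and 10.5, 10.1 and 10.3 FPKM in shTDP43. Its groups did not overlap either, at 84.6% of control (log2 difference -0.22, SE 0.04).

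Of 7 other doublecortin-domain genes, 2 were tested. DCLK3, a kinase of the same family, rose from 1.65 ± 0.0301 to 2.85 ± 0.192 FPKM (limma adjusted p = 0.000686; SD, n = 3), and DCLK2 had 11.7 ± 0.459 and 11.05 ± 0.521 FPKM (limma adjusted p = 0.208). The 5 untested genes averaged under 1 FPKM. DCX made up 36.4%, 36.9% and 36.4% of the summed FPKM of DCX, DCLK1, DCLK2 and DCLK3 in the shNC libraries and 54.5%, 54.5% and 54.2% in the shTDP43 libraries. That sum was 132% of control.

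**Figure D3:**
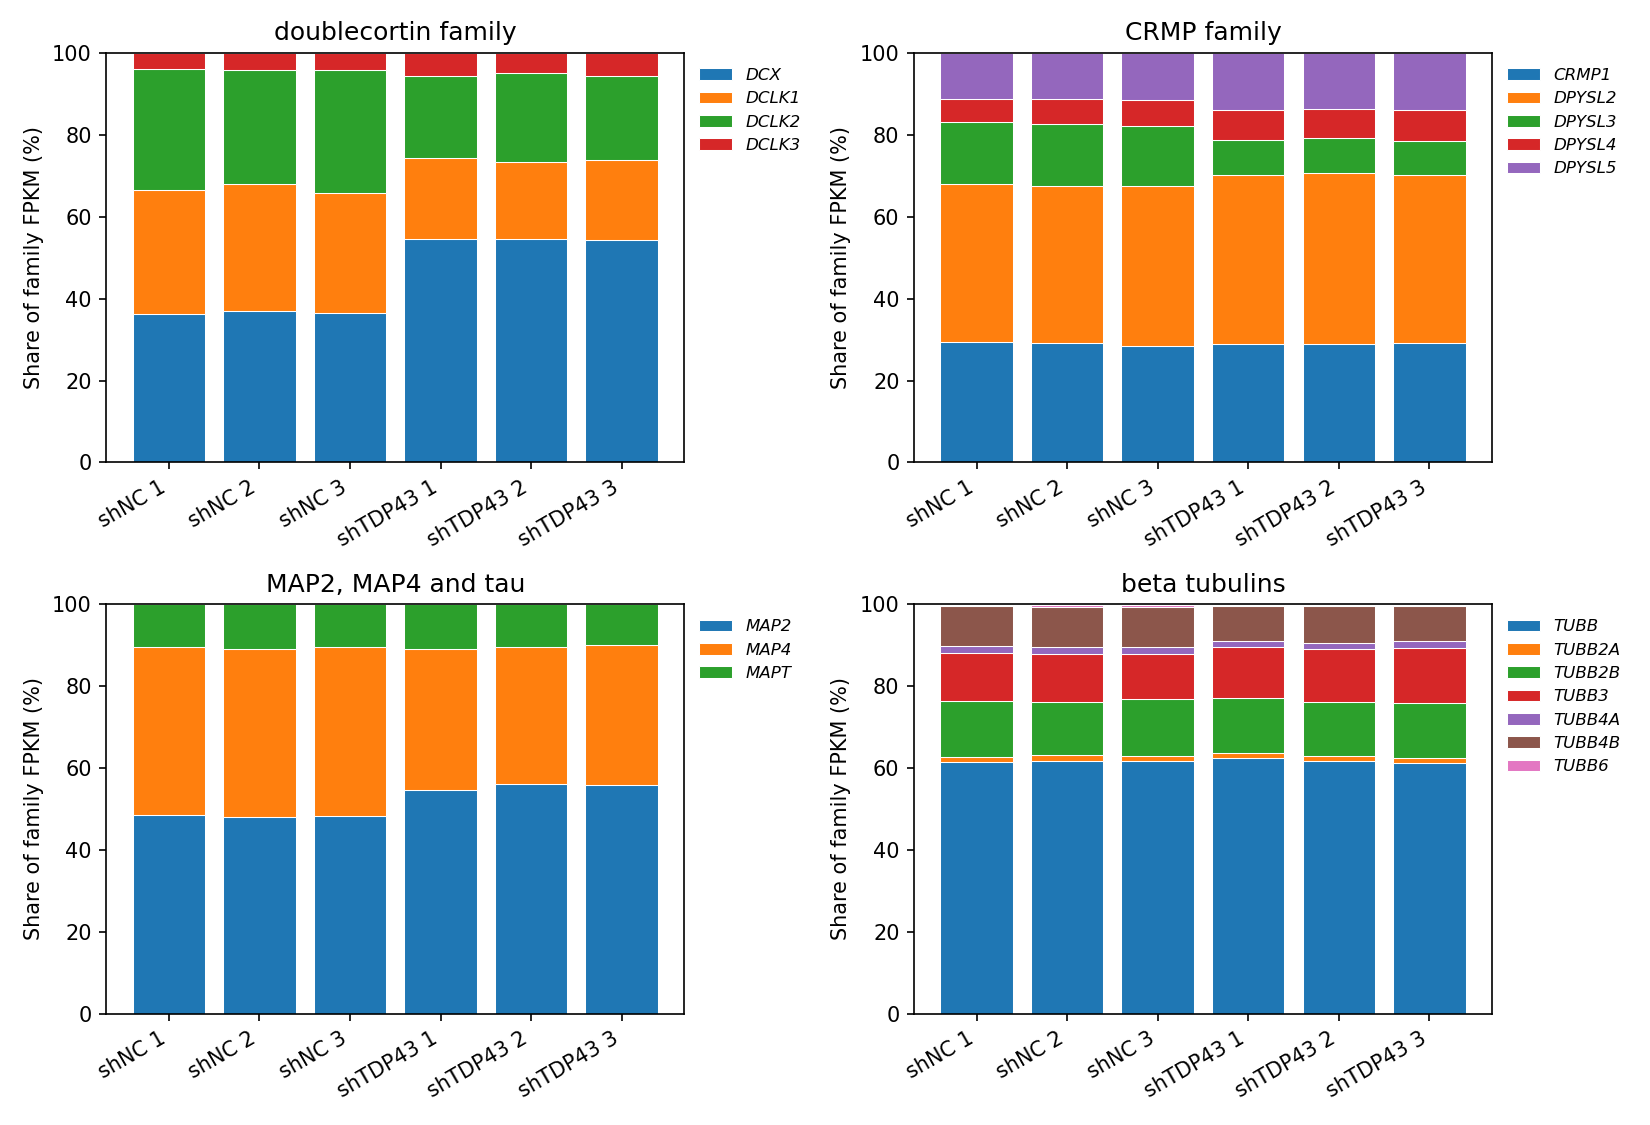
Share of each gene in the summed FPKM of its family, in percent, for each library: doublecortin family, CRMP family, MAP2, MAP4 and tau, and beta-tubulins (TUBB1 and TUBB8, the least abundant, are not drawn). DCX takes a larger and DPYSL3 a smaller share in the 3 shTDP43 libraries, while the beta-tubulin panel is nearly the same in all 6.

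DPYSL3 and GAP43 were both lower in shTDP43. DPYSL3 (chr5:147390808-147510068), which encodes the developmental CRMP also called CRMP4, had 61.5, 63.7 and 60.1 FPKM in shNC and 33.3, 33.2 and 33.1 FPKM in shTDP43. At 53.7% of control (log2 difference -0.88, 95% interval -0.94 to -0.81) it was the lowest of the 10 genes relative to control, with no overlap. GAP43 (chr3:115623510-115721483), a palmitoylated calmodulin-binding protein of the growth cone membrane, had 40.04, 38.4 and 40.7 FPKM in shNC and 30.1, 30.4 and 27.9 FPKM in shTDP43. It stood at 74.3% of control without overlap (log2 difference -0.42, SE 0.04), a difference similar in size to those of MAP1B and MAP4.

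Of the 4 other CRMP genes 2 rose and 1 fell. DPYSL5 rose from 46.8 ± 1.05 to 54.4 ± 1.30 FPKM (limma adjusted p = 0.000781) and DPYSL4 from 24.7 ± 0.864 to 28.2 ± 1.08 FPKM (limma adjusted p = 0.00624; SD, n = 3 each). CRMP1 fell to 94.9% of control (limma adjusted p = 0.0415), a call lost with quantile normalization (adjusted p = 0.415) and without any single library other than shNC replicate 3. DPYSL2, the most abundant, had 159.8 ± 1.498 and 162 ± 0.920 FPKM and was not past the threshold (limma adjusted p = 0.412), but was with quantile normalization (adjusted p = 0.0133). Without the pair of libraries low in SNORD3A, DPYSL4 was not past it (adjusted p = 0.0587). DPYSL3 made up 15.0% ± 0.278 of the summed CRMP FPKM in shNC and 8.47% ± 0.110 in shTDP43 (SD, n = 3), and the sum was 94.9% of control.

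TUBB3 (chr16:89921925-89936097), the neuron-specific beta-tubulin, had 127, 127 and 118 FPKM in shNC and 134, 136 and 146 FPKM in shTDP43. shTDP43 replicate 3 was the highest and shNC replicate 3 the lowest, and the groups did not overlap. The shTDP43 mean was 112% of control (log2 difference 0.16, 95% interval 0.07 to 0.25), and without the pair of libraries low in SNORD3A the difference of 0.14 was not past the threshold. Another protein-coding gene model on the same strand shares 1584 exonic bases with TUBB3, so its value is uncertain. TUBB3 made up 11.5% ± 0.358 of beta-tubulin FPKM in shNC and 12.9% ± 0.505 in shTDP43 (SD, n = 3), and the sum over 9 beta-tubulin genes was 99.4% of control.

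Most other tubulins were not past the threshold. Of 21 genes 15 were tested, 3 rose and 2 fell, with a median log2 difference of -0.02. Without shNC replicate 3 the number that fell was 4, and without the pair of libraries low in SNORD3A the number that rose was 1. TUBA1A, the main alpha-tubulin of young neurons, rose from 458 ± 18.9 to 510.0 ± 18.9 FPKM (limma adjusted p = 0.0133). TUBA8, near the filter of 1 FPKM, rose from 1.34 ± 0.138 to 1.96 ± 0.113 FPKM (SD, n = 3), or 146% of control. TUBE1, an epsilon-tubulin of centrioles, rose to 118% of control. TUBB6 fell to 57.8% of control, from 5.40 ± 0.590 to 3.13 ± 0.506 FPKM (limma adjusted p = 0.00220), and TUBB4B to 87.8%. TUBB, the most abundant, had 99.8% of control. The rises of TUBA1A and TUBA8 were not past the threshold without the pair of libraries low in SNORD3A (adjusted p = 0.0787 and 0.102), and that of TUBE1 was lost without shNC replicate 1 and without either of shTDP43 replicates 1 and 2 (adjusted p of 0.0525 to 0.0624). Alpha- and beta-tubulin genes are near copies of one another, so reads may be split between them and these values are uncertain.

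The surrounding pathway was covered by 7 lists of 142 genes, of which 124 were tested, 25 rose (20.2%) and 23 fell (18.5%). These shares are near those of all tested genes, 18.5% and 19.6%, and the median log2 difference was -0.0020. Among 34 tested other structural and plus- or minus-end MAPs 7 rose and 8 fell. TPPP3, a tubulin polymerisation-promoting protein, fell from 13.3 ± 1.76 to 6.76 ± 1.203 FPKM (limma adjusted p = 0.000921), MAP7, which recruits kinesin, from 18.3 ± 0.353 to 11.6 ± 0.349 FPKM (limma adjusted p = 9.14e-06) and NAV2, a neuron navigator protein, to 73.1% of control. MAP6, which stabilises microtubules against cold, rose from 22.03 ± 0.636 to 28.8 ± 0.446 FPKM (limma adjusted p = 6.21e-05; SD, n = 3 each), MAP7D3 to 138% and TRIM46, an organiser of axonal microtubules, to 132%. The abundant end-binding gene MAPRE1 had 97.6% of control and was not past the threshold (limma adjusted p = 0.267), and EML4 fell to 87.7%.

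**Figure D4:**
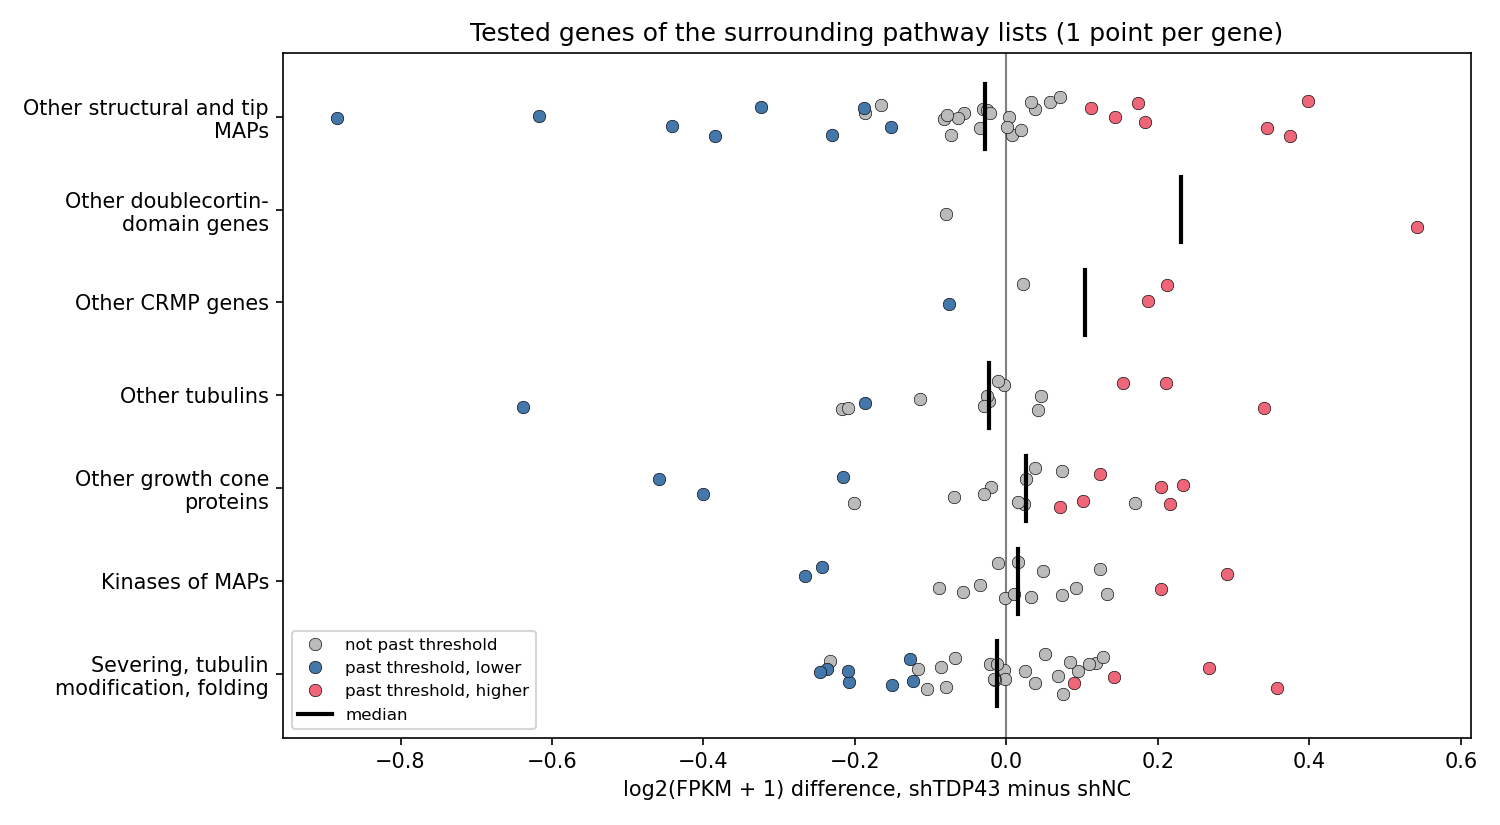
Difference between shTDP43 and shNC on the log2(FPKM + 1) scale for the 124 tested genes of 7 surrounding lists, 1 point per gene, coloured by the limma call, with the median of each list as a black line. Points past the threshold lie on both sides of 0 in every list but the other doublecortin-domain genes, where 1 gene passed.

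Other growth cone membrane and actin proteins were higher in 6 and lower in 3 of 19 tested genes. GPM6B, a proteolipid of the growth cone membrane, fell to 71.7%, the adhesion molecule NCAM1 to 59.3 ± 0.531 FPKM from 78.6 ± 1.21 (limma adjusted p = 8.03e-06; SD, n = 3) and L1CAM to 85.7% of control. MARCKSL1 rose from 218 ± 3.47 to 257 ± 3.27 FPKM (limma adjusted p = 0.000127; SD, n = 3), its relative MARCKS to 116% and the actin-bundling gene FSCN1 to 115%.

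Genes of kinases that phosphorylate MAPs, listed together with activators of CDK5, were mostly not past the threshold, with 2 of 17 higher and 2 lower. CDK5R1, the p35 activator of CDK5, rose to 124% of control (limma adjusted p = 0.000319) and GSK3A to 116% (adjusted p = 0.00753, and 0.0727 without the pair of libraries low in SNORD3A). The tau-tubulin kinase gene TTBK2 fell to 82.3% and MAPK8, which encodes the kinase JNK1, to 83.8%. Among 33 tested genes of microtubule severing, tubulin modification and tubulin folding 4 rose and 7 fell. The number that rose was 2 when replicate 2 of either group, or the pair of libraries low in SNORD3A, was left out, and the number that fell was 4 without shTDP43 replicate 1. TTL, the enzyme that adds tyrosine back to alpha-tubulin, fell to 83.8% (limma adjusted p = 0.000232), the katanin-like gene KATNAL1 to 83.6% and the tubulin chaperone gene TBCA from 249.98 ± 6.71 to 216 ± 9.24 FPKM (SD, n = 3). FIGNL2 rose to 139%, TBCC to 123% and FIGNL1 to 111% of control. The rise of FIGNL1 was not past the threshold without shNC replicate 2 or shTDP43 replicate 2 (limma adjusted p = 0.0632 and 0.0529). The same held without the pair of libraries low in SNORD3A (limma adjusted p = 0.0804).

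Markers of the mesenchymal type of neuroblastoma cell were lower in the same libraries. All 6 tested of 10 fell, while 19.6% of all tested genes were lower. The summed level of the 10 markers was 167 to 169 FPKM in shNC and 97.6 to 99.7 FPKM in shTDP43. Most of this sum was VIM in both groups, which fell from 129 ± 0.381 to 84.9 ± 0.363 FPKM (SD, n = 3), or 65.8% of control. COL3A1 fell from 16.6 ± 0.246 to 1.93 ± 0.405 FPKM and TAGLN from 5.73 ± 0.791 to 1.70 ± 0.179 FPKM (SD, n = 3). The other 4 markers averaged under 1 FPKM and were not tested: every shTDP43 library was below every shNC library in COL1A1 and YAP1, the groups overlapped in COL1A2, and PRRX1 was at 0 in all libraries but shNC replicate 3, where it had 0.0115 FPKM. Fewer cells of a type and less RNA per cell cannot be told apart in such bulk samples, and the part of these markers in the differences of the 10 genes was not tested. Of 8 Schwann cell and glial markers 1 was tested, S100B, which fell to 51.5% of control but was not past the threshold without either of shNC replicates 1 and 2, and the list summed to 3.66 to 4.20 FPKM in shNC and 3.14 to 3.74 FPKM in shTDP43. Of 8 blood, endothelial and epithelial markers, 2 were tested and KRT18 fell, with sums of 2.89 to 3.51 and 1.01 to 1.76 FPKM, while HBB and KRT5 were at 0 in all 6 libraries.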

How the data were processed

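The authors deposited a table of FPKM for 26372 gene symbols in 6 libraries of SH-SY5Y cells, 3 with shNC and 3 with shTDP43. Per the submitters' processing notes, the tools were TopHat2 2.1.0, SAMtools and Cuffdiff 2.2.1 and the build was hg38. Not given in the sources used here are the annotation, strand use and the treatment of reads with several matches. FPKM are not counts, so depth is unknown apart from the relative estimate, and no count model was used.

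Values were analysed as log2(FPKM + 1) in R 4.3.3 with limma 3.58.1 for 13263 genes, those averaging 1 FPKM or more over the 6 libraries. Group was the only term, variances were moderated with a trend, and two-sided p-values received a Benjamini-Hochberg adjustment over all tested genes, with a threshold of 0.05. Percentages of control are ratios of mean FPKM. The fit was tested on simulated data with independent libraries, which cannot show whether the libraries here are technical repeats. The 10 genes and the surrounding lists were chosen with earlier results of these data known. Named genes were the 10 genes, TARDBP and, of each list, up to 3 past the threshold with the largest rise and 3 with the largest fall and no overlap of groups, plus the 2 most abundant, and up to 2 in each direction of each marker list. SNORD3A, TH, VIM, COL1A1, COL1A2, PRRX1, YAP1, HBB, KRT5 and MAPT-AS1 were named after their values were seen. Alternatives were other pseudocounts, filters and scalings, no variance trend, a replicate block, leaving out each library and, chosen after seeing the data, leaving out both libraries low in SNORD3A. Motif windows came from GENCODE release 29 and RefSeq.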

Additional observations from a re-analysis of the deposited data

How the results depend on the processing

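Among all genes, 2448 were higher and 2606 lower, and without both libraries low in SNORD3A 1563 were higher and 1760 lower, with fewer libraries for the test. The same alternative left 1 of the 10 genes higher and 16 genes of the surrounding lists higher, where all 6 libraries gave 2 and 25. No planned setting moved these totals by more than 1.5 times. The direction with more genes did change. More were higher than lower with quantile normalization (2693 and 2374) and with a mean of at least 5 FPKM (2164 and 1949). Leaving out each library in turn gave 1932 to 2093 genes higher and 2077 to 2292 lower, 2 of the 10 genes higher and 5 to 6 lower, 19 to 23 genes of the surrounding lists higher and 19 to 23 lower, and a TARDBP log2 difference from -0.71 to -0.65. The differences of MAP1A, TUBB and TBCB were near 0 and changed sign. With quantile normalization they were -0.00068, 0.068 and 0.0023. Without shNC replicate 2 MAP1A was -0.025 and TUBB 0.0030, without shTDP43 replicate 1 MAP1A was -0.0055, and without shTDP43 replicate 2 MAP1A was -0.020, TUBB 0.0065 and TBCB 0.011. Over all leave-one-out fits MAP1A ran from -0.025 to 0.031, TUBB from -0.012 to 0.0065 and TBCB from -0.031 to 0.011. The cause was not tested. With the replicate number as a block, 2152 genes were higher and 2350 lower, the calls of the 10 genes were unchanged, and the call of CRMP1 was lost (adjusted p = 0.0848). Deviations of libraries with the same number correlated at -0.068, 0.064 and 0.112, so the numbers were not taken to pair the libraries. A smaller pseudocount (0.1 or 0.01), no filter, a mean of at least 5 FPKM and median centring changed no call of the 10 genes. Genes near 0 are limited by depth, which was lower in shTDP43 by the rough relative estimate.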
